A study of Mus musculus with 10 samples.

Results

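The core and linker histone genes were followed through 5 poly(A) RNA-seq libraries of mouse spleen T and B cells. Members were taken by symbol from the deposited count table: linker histones (H1f followed by a number) and core histones (H2ac, H2bc, H3c and H4c followed by a number), without pseudogene symbols. This gave 72 of 56893 genes, of which 11 encode H1, 18 H2A, 18 H2B, 12 H3 and 13 H4. The study used CRISPR interference, in which a guide RNA brings a catalytically dead Cas9 to a promoter, at Pou2f1, the gene of the octamer-binding transcription factor Oct-1. The groups were T cells given the control the labels call Mock, T cells with the guide sgRNA-P1 (P1 promoter), B cells with Mock, B cells with sgRNA-P1 and B cells with sgRNA-P2 (P2 promoter). All were primary cells of the spleen. The sources used here do not give what the mock cells received, the strain, age and number of mice, the way the cells were selected or the time the guides had to act.

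Each core nucleosome wraps DNA around a histone octamer built from H2A, H2B, H3 and H4, and linker histone H1 binds where the DNA enters and leaves. Most core histone genes lie in clusters, often as H2A and H2B pairs that are transcribed away from each other, and are transcribed in S phase. Their mRNAs end in a stem-loop in place of a poly(A) tail, which the stem-loop binding protein recognises, while variants such as H1f0 make polyadenylated mRNA outside S phase. Oct-1 was described early as an activator of H2B genes through the octamer motif, and lymphocytes also make the related factor Oct-2 and, in B cells, its coactivator OCA-B.

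The octamer motif was looked for because it links Oct-1 to particular members. A window of 300 bases, 250 before and 50 after the annotated start, was at hand from RefSeq (GRCm38.p6) for 62 of the 72 members. The motif was spelled ATGCAAAT or, on the other strand, ATTTGCAT, and allowed no mismatch. It occurred in 7 of 15 H2B windows (46.7%, 14 genes) and in 6 of 17 H2A windows (35.3%), and in none of the 10 H1, 10 H3 and 11 H4 windows. Of 32851 promoter windows of the same length over all genes, 570 (1.74%) held it. In all 7 H2B windows the match read ATTTGCAT along the gene's own strand, and in all 6 H2A windows it read ATGCAAAT. Some H2A and H2B windows cover the same octamer of a divergent pair. This fixes the opposite spelling there, and such matches are not independent. The sequences below are those of the 2 H2B genes of highest level with an octamer in their own window, each as 150 bases upstream of the start on the gene's strand, followed by 40-base stretches around the match in other members. Capitals mark the octamer.
H2bc8, chr13:23571250-23571399, plus strand: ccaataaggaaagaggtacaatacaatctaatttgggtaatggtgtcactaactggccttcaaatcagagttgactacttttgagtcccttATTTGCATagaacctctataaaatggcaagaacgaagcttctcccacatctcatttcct
H2bc6, chr13:23585971-23586120, minus strand: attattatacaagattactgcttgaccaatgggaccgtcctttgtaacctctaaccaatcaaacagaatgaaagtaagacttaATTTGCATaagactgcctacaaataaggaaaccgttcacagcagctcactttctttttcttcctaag
H2bc3, chr13:23746628-23746667, plus strand: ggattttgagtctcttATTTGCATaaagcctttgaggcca
H2bc14, chr13:21722003-21722042, plus strand: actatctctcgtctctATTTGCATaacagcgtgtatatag
H2bc1, chr13:23934297-23934336, minus strand: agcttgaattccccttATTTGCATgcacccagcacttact
H2ac8, chr13:23571325-23571364, minus strand: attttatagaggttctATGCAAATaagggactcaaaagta
H2ac1, chr13:23934297-23934336, plus strand: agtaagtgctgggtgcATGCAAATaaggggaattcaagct

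The octamer began 59 bases before the annotated start of H2bc8 and 67 bases before that of H2bc6. It began 25 bases before the start of H2bc14, 90 before that of H2bc3 and 164 before that of H2bc1. H2ac8 and H2bc8 are a divergent pair, and the stretch printed for H2ac8 holds the same 8 bases of the genome as the H2bc8 octamer, read from the other strand. H2ac1 and H2bc1 share their octamer in the same way, as do H2ac12 and H2bc12. The H2A and H2B shares thus count these matches in both types. The other common promoter elements were spread differently: CCAAT (both strands) stood in all 17 H2A, all 15 H2B and all 10 H3 windows but in 3 of 11 H4 windows (27.3%), against 37.4% of all promoters. TATAAA (both strands) stood in 8 of 11 H4 windows (72.7%), 11 of 17 H2A windows (64.7%) and 7 of 15 H2B windows (46.7%), against 13.6% of all promoters. Matches of different motifs may overlap by their end letters, and a match is a match of letters in this window and no more.

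**Figure D1:**
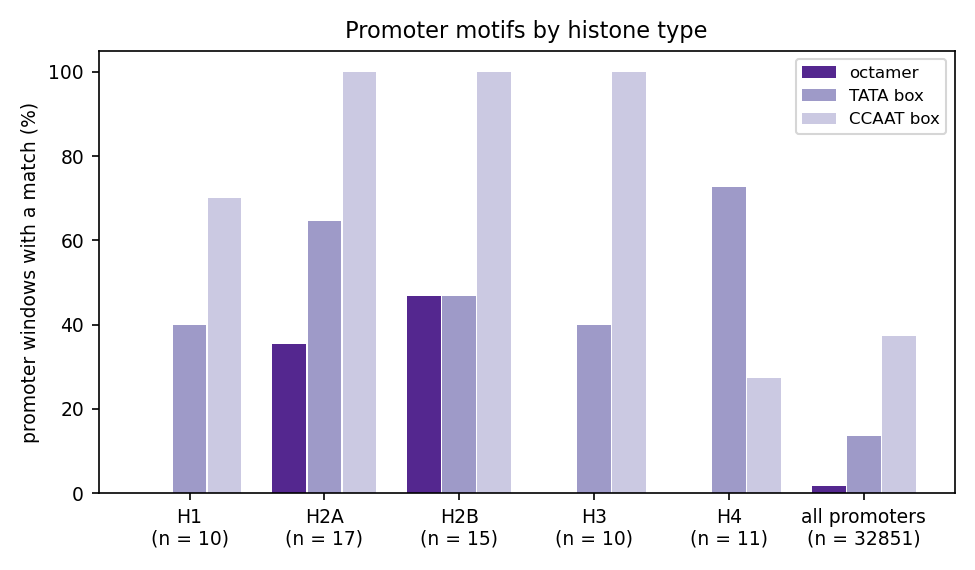
Share of RefSeq promoter windows (300 bases) with a match to the octamer, TATA box or CCAAT box, by histone type and over all promoters; n is the number of windows. Octamer matches stand in H2A (35.3%) and H2B (46.7%) windows and in no H1, H3 or H4 window, against 1.74% of all promoters. Divergent H2A and H2B partners can share an octamer, which then counts in both types.

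Each group was deposited as 2 columns. These differed by less than the sampling noise (mean chi-square per gene 0.00231 to 0.00283, over genes with 20 or more reads), and their sum was taken as 1 sample. The summed libraries held 28118839 to 71858511 reads. With 1 library per group no pairwise comparison has a replicate check. Brackets below are 95% counting intervals, which cover counting error only. Levels are counts per 1000000 reads (CPM), scaled by TMM factors, and fold changes are log2 ratios after adding 1 read to each library. The T cell markers summed to 4790 and 4824 CPM in the T libraries and to 46.1 to 47.5 CPM in the B libraries, nearly all of it Lck. The B cell markers summed to 17946 to 18340 CPM in B and to 347 and 366 CPM in T, nearly all of it Ighm. Pou2f1, the targeted gene, was at 138 CPM in T cells with Mock and 66.1 CPM with sgRNA-P1, a log2 ratio of -1.06 [-1.15, -0.97]. In B cells it was at 157 CPM with Mock, 91.1 with sgRNA-P1, a log2 ratio of -0.78 [-0.87, -0.70], and 86.5 with sgRNA-P2, one of -0.86 [-0.96, -0.76]. Pou2f1 overlaps the T cell gene Cd247 on the opposite strand, and the sources used here do not say whether reads were counted by strand, so its level in T cells is uncertain.

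Few histone genes were abundant in these poly(A) libraries. Of the 72 members, 56 had at least 1 read and 16 had none in any library. Only 14 members (19.4%) reached 1 CPM in some library, against 25.6% of all genes, and 6 (8.33%) reached 5 CPM, against 19.3%. The 14 comprised 4 H1, 1 H2A, 5 H2B, 4 H4 and no H3 gene. A further 42 members had reads but stayed under 1 CPM. The members without a read were H1f7, H1f9, H2ac1, H2ac10, H2ac12, H2ac18, H2ac19, H2ac21, H2ac23, H2ac24, H2bc1, H2bc12, H2bc18, H3c13, H3c14 and H4c2. For a count of 0 the upper 95% counting limit, with 2 reads taken as 1 fragment, was 0.102 CPM in the deepest library and 0.262 CPM in the shallowest. H2ac18, H2ac19, H2bc18, H3c13 and H3c14 lie wholly within exons of other annotated genes. Their reads may not have been assigned to them, so this limit does not bound their level. The 14 members at 1 CPM or more had a median exon length of 1780 bp in the table's annotation, and the other 58 had a median of 522 bp. How much histone mRNA without a tail entered the libraries was not measured. For comparison, 12 RNAs known mostly without a poly(A) tail, such as 7SK, summed to 1.32 to 3.44 CPM, with 6 to 8 of the 12 at 0 in each library. They may differ from histone mRNA in library preparation and mapping too, so their values do not measure it.

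Many histone genes are near copies of each other. Of all 100-base stretches of a transcript (GENCODE M21), the share also found in another gene had a median of 69.9% over H2A, 49.8% over H3, 36.5% over H2B, 25.4% over H4 and 0.396% over H1 members. The share was 44.9% for H2bc8, 25.4% for H2bc4, 15.1% for H4c9, 5.07% for H1f2 and 3.27% for H1f0, and no such stretch of H2bc21, H4c14 or H4c4 was shared. The share was also high for other H2B and H4 members, such as 100% for H2bc18, 70.8% for H2bc12 and 88.1% for H4c17. The sources used here do not say how reads that fit several places were handled. The counts of H2bc8, H2bc4, H4c9, most H2A and H3 members and many other H2B and H4 members are therefore uncertain. H2bc6 and H1f4 share 496 bases of exon on the same strand, and H2ac25 shares 708 bases (33.0% of its length) with Trim17, which had 10 to 48 reads per library. Values for these 3 genes are uncertain for that reason too.

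Linker histones gave most of the histone reads. H1f2, a somatic H1 subtype, was at 45.1 (3249 reads) and 46.5 CPM in the mock and sgRNA-P1 libraries of T cells, and at 69.1, 58.7 and 62.7 CPM in the mock, sgRNA-P1 and sgRNA-P2 libraries of B cells. Values below follow the same order of libraries. All 3 B libraries were above both T libraries. H1f0, the variant associated with resting and differentiated cells, was at 25.1 and 25.7 CPM in the T libraries and at 4.11, 3.86 and 4.48 in the B libraries. The T and B values did not overlap, in the opposite order to H1f2. How many of all genes separate in this way was not counted, here and for the members below. In the fit over 5 libraries 70.4% of all genes tested were called between T and B cells, so such separation is not particular to these members. H1f3 was at 0.71 and 0.78 CPM in T and at 2.04, 1.68 and 2.42 in B cells. H1f4 lay between 0.82 and 1.39 CPM in all libraries, with the T values inside the B range. H1f2 made up 62.2% of the H1 reads in mock T cells and 90.0% in mock B cells.

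Among the H2A genes, H2ac25 alone reached 1 CPM, at 2.86 and 2.68 CPM in the T libraries and 5.73, 5.48 and 4.98 in the B libraries. It held 73.0 to 79.2% of all H2A reads in each library. The B libraries were all above the T libraries.

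H2B had the most reads of the core histone types in these poly(A) libraries. It held 58.0 to 60.6% of the core histone reads in each library, while H3 held 2.50 to 4.18%. These shares are not set against length, and H2bc21, of 2620 bp, alone gave 34.9 to 58.1% of the H2B reads. The lack of a poly(A) tail and reads shared between copies also bear on them, so they do not rank the types by mRNA in the cells. H2bc21, which encodes the variant H2BE known from olfactory neurons, was nearly level, at 9.05 and 9.39 CPM in T and 9.52, 9.0 and 9.99 CPM in B cells. H2bc8 was at 0.47 and 0.30 CPM in T and at 6.38, 5.62 and 6.19 CPM in B cells, so that its reads numbered 34 and 12 in the T libraries and 216, 271 and 174 in the B libraries. H2bc4 was at 2.0 and 1.93 CPM in T and 4.76, 5.33 and 4.80 CPM in B cells. Both genes separated T from B libraries without overlap, as did H2bc6, at 0.90 and 1.10 CPM in T and 2.31, 1.95 and 2.03 CPM in B cells. H2bc27 went the other way by a smaller margin, at 3.31 and 3.18 CPM in T and 2.39, 3.05 and 2.17 CPM in B cells.

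H3 genes stayed under 1 CPM throughout. The highest, H3c1, had 39 and 20 reads in T and 32, 11 and 11 in B cells. H3c4 had no read in either T library and 7, 17 and 8 reads in the B libraries. Among H4 genes, H4c9 was at 1.80 and 1.85 CPM in T and 4.46, 3.71 and 3.98 in B cells. H4c16 was at 0.71 and 0.70 CPM in T and 1.89, 1.33 and 1.78 CPM in B cells. The B values of both were above the T values. H4c14 was at 0.79 and 1.30 CPM in T and 0.80, 1.64 and 1.46 CPM in B cells, so that its 3 guide libraries were above its 2 mock libraries. H4c4 ranged from 0.52 to 1.07 CPM with T and B values interleaved.

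**Figure D2:**
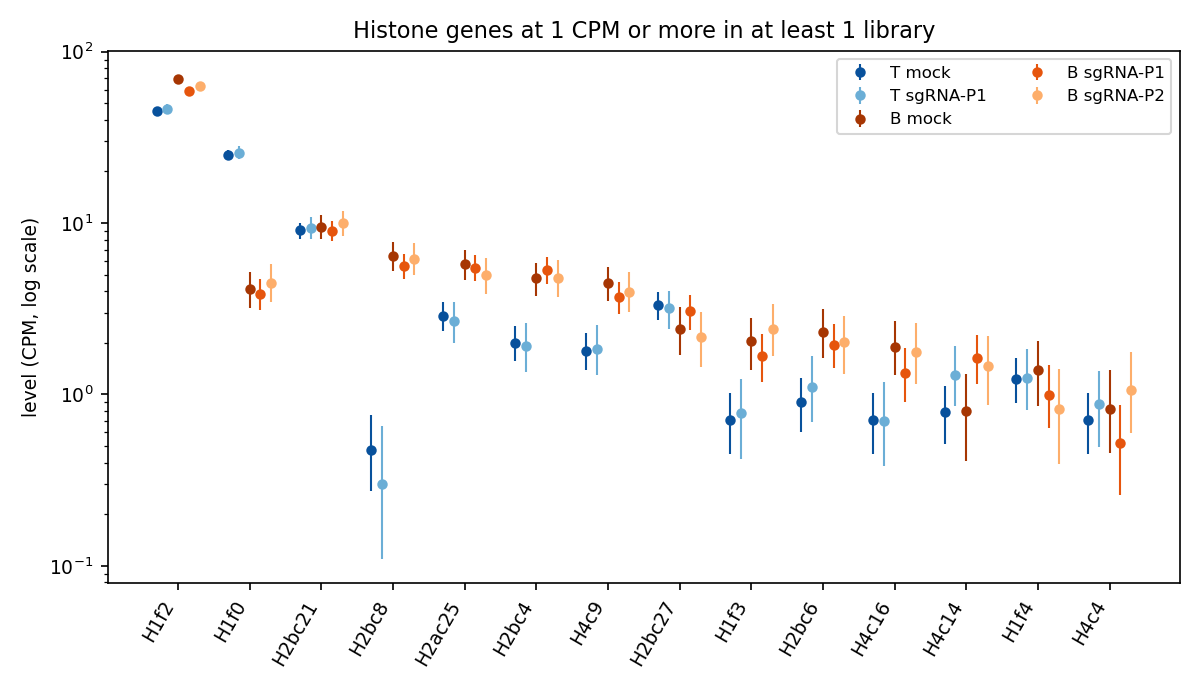
Level (CPM, log scale) of the 14 histone genes at 1 CPM or more in at least 1 library; each point is 1 library and bars are 95% counting intervals. H1f0 is high in both T libraries, H2bc8 in all 3 B libraries, and H2bc21 lies between 9.0 and 9.99 CPM in all 5.

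Set against transcript length, the order of the genes differed between the cell types. In mock T cells H1f2 was at 28.9 CPM per kb, H1f0 at 12.2, H2bc27 at 5.40 and H2bc21 at 3.46 CPM per kb. In mock B cells H1f2 was at 44.3 CPM per kb, H2bc8 at 10.3, H4c9 at 6.14, H2bc4 at 4.12, H2bc27 at 3.90 and H2bc21 at 3.63 CPM per kb, while H1f0 was at 2.0. From H4c9 downward to H2bc21 the counting intervals of neighbours in the B order overlap. The order rests on the annotated exon lengths, which run from 312 to 7425 bp.

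Mock T against mock B cells addresses how far histone genes differ between the cell types without a guide. Summed over all members of a type, H2A was 3.91 CPM in T and 7.24 CPM in B cells, a log2 fold change of -0.89 [-1.24, -0.52]. The H2B sum was 16.3 and 26.3 CPM, at -0.69 [-0.88, -0.51], and the H4 sum 5.88 and 10.1 CPM, at -0.78 [-1.08, -0.48]. H3, with 82 and 55 reads, had an interval that includes 0, at -0.52 [-1.23, 0.27]. The H1 sums were 72.5 and 76.8 CPM, at -0.08 [-0.18, 0.01], with H1f0 and H1f2 on opposite sides, and without H1f2 the H1 value was 1.83. The core histone sum as a whole was lower in T cells, at -0.74 [-0.87, -0.60]. In such bulk samples, fewer cells that transcribe a gene and less RNA per cell cannot be told apart.

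**Figure D3:**
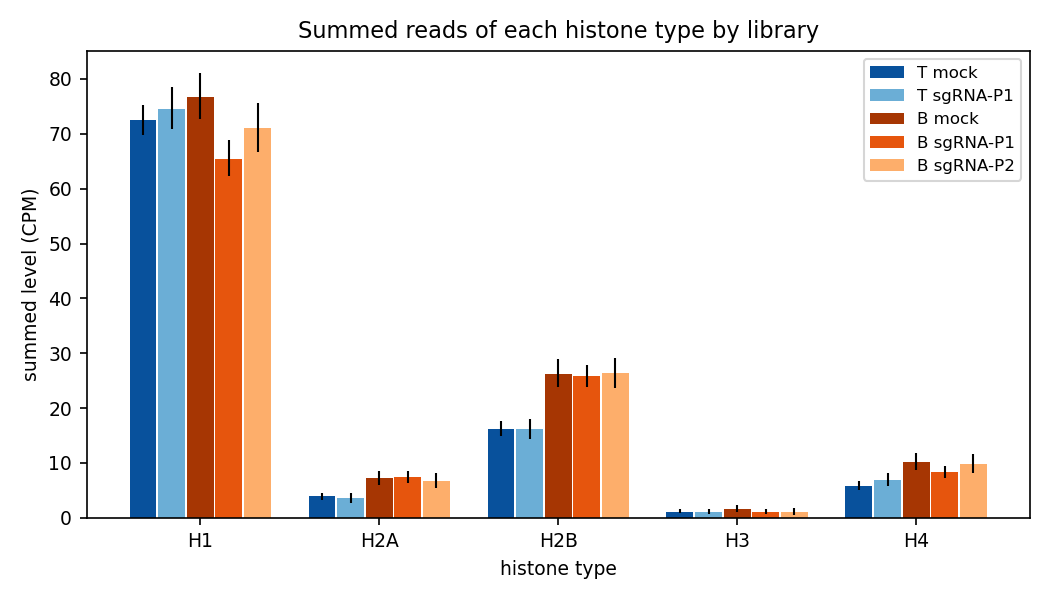
Summed level (CPM, linear axis from 0) of each histone type in each of the 5 libraries, with 95% counting intervals as bars. The H2A, H2B and H4 bars of both T libraries lie below those of the 3 B libraries, and the H1 sums lie between 65.5 and 76.8 CPM.

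Single genes were judged by size alone: a difference of 1.5-fold or more, in genes that reach 5 CPM in the higher library. By it 4 of 5 members passed in mock T against mock B cells, 1 higher and 3 lower in T, where 37.0% of 10804 genes passed. At 1 CPM it was 9 of 12 members, 1 higher and 8 lower, against 43.0% of all genes. The median log2 fold change of the 12 members was -1.13, and that of all genes at 1 CPM was 0.02. H1f0 stood at 2.60 [2.27, 3.0], H2bc8 at -3.72 [-4.59, -3.01], H1f2 at -0.62 [-0.73, -0.51] and H2ac25 at -1.01 [-1.42, -0.59]. H2bc21 was at -0.07 [-0.35, 0.21].

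The 5 libraries together allow 1 fit with 2 residual degrees of freedom: edgeR's quasi-likelihood test over 14054 genes, whose terms are the cell type (2 T, 3 B libraries) and the presence of a guide, sgRNA-P1 or sgRNA-P2. A gene was called at a Benjamini-Hochberg adjusted p under 0.05. Of 13 members tested, 9 were called between T and B cells, 1 higher and 8 lower in T, while 70.4% of all genes tested were called, 35.2% in each direction. H1f0, at a log2 difference of 2.61, had an edgeR adjusted p of 3.29e-11. H2bc8 was at -3.97 (edgeR adjusted p 3.05e-09), H2bc4 at -1.34 (1.41e-05) and H1f2 at -0.50 (1.43e-05). The other 5 called members were H2ac25 (-1.0), H4c9 (-1.18), H1f3 (-1.46), H4c16 (-1.28) and H2bc6 (-1.10). H2bc21, H2bc27, H1f4 and H4c14 were not called, with edgeR adjusted p from 0.158 to 0.698. All 9 called members were also called in each of the 5 fits that leave out 1 library, where the largest edgeR adjusted p was 0.0458, for H2bc6. In the 2 fits without a T library the lone T sample is assumed to vary as the B libraries do.

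**Figure D4:**
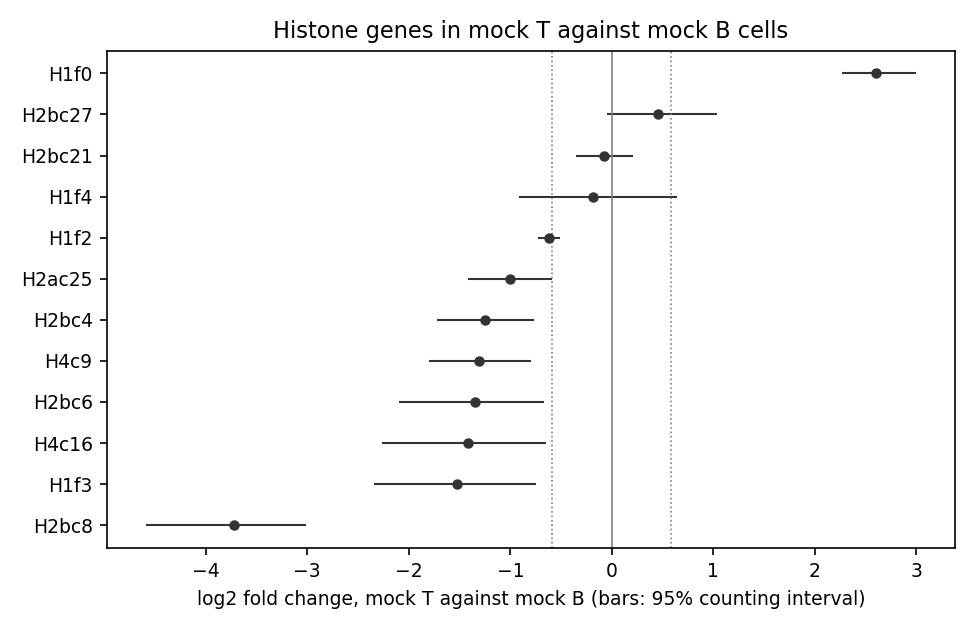
Log2 fold change of mock T against mock B cells for the 12 histone genes at 1 CPM or more in the higher of both libraries, with 95% counting intervals; dotted lines mark 1.5-fold. H1f0 lies at 2.60, H2bc8 at -3.72, and 8 genes lie beyond the lower line.

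Other gene lists were measured beside this difference. Of all genes at 5 CPM or more, 37.0% were past 1.5-fold in mock T against mock B cells. The octamer factors were all lower in mock T cells: Pou2f2, which encodes Oct-2, was at 59.0 CPM in T and 338 CPM in B cells, and Pou2af1, which encodes OCA-B, at 20.9 and 621 CPM. S phase and mitosis genes were mostly higher in T cells, 11 of 13 at 5 CPM or more with a median log2 fold change of 0.41, and 3 of them past 1.5-fold, Mki67 (0.99), Rrm2 (1.05) and Tyms (1.13). E2f1 was past it in the other direction, at -0.97. Of 14 measured factors of histone mRNA transcription and processing, 13 reached 5 CPM. These had a median of 0.08, and 1 of them was past 1.5-fold, the cleavage factor gene Cpsf2 at -0.87. The 14th, Zfp473, a zinc finger protein of histone pre-mRNA processing, was at 1.22 and 3.28 CPM, at -1.42 [-2.02, -0.82]. Slbp, the stem-loop binding protein gene, was at -0.24 and Npat, a coactivator of histone genes, at 0.14. The part of these genes in the histone difference was not tested.

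The RNAs mostly without a poly(A) tail summed to 3.44 CPM in mock T and 1.71 CPM in mock B cells, of which Scarna2 alone was 1.73 and 0.62 CPM, and their part in the histone difference was not tested. Markers of other cells also differed between the T and B libraries. The 4 plasma cell markers summed to 66.6 and 68.2 CPM in T and 193 to 204 CPM in B, none at 0. They did not share 1 pattern. In mock T and mock B cells Jchain was at 1.11 and 106 CPM and Sdc1 at 1.68 and 19.7 CPM. Xbp1 was at 53.9 and 73.1 CPM, most of the T sum, and Prdm1 was higher in T, at 11.5 and 5.03 CPM. The 5 neutrophil and monocyte markers summed to 1.10 and 1.15 CPM in T and 3.38 to 4.07 CPM in B. The 3 platelet markers summed to 5.55 and 6.46 CPM in T and 2.26 to 2.84 CPM in B. Nearly all of it was Itga2b, with Pf4 at 0 in all libraries and Ppbp seen only in B cells with sgRNA-P1, at 0.02 CPM. Their part in the histone values was not tested.

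Histone variants expressed outside S phase, a list that contains H1f0 and H1f10, did not share 1 direction. Of its 9 genes at 5 CPM or more in mock T or B cells, 2 were past 1.5-fold higher in T, H1f0 and H2az1 (1.43), and 3 were past it lower, H3f3a (-1.55), H3f3b (-0.90) and Cenpa (-0.61). H3f3b alone, which encodes H3.3, was at 688 CPM in mock T and 1281 CPM in mock B cells. The sum of all 72 histone members was far below it in these poly(A) libraries (99.7 and 122 CPM). Most core histone mRNAs have no tail, so this does not compare the mRNA in the cells. Of the 10 chaperone genes, Chaf1b (1.20) and Daxx (0.69) were past it higher and Nap1l1 (-1.23) and Chaf1a (-0.63) were past it lower in T. Among all genes at 5 CPM, 37.0% were past 1.5-fold in this comparison. H3f3a, H3f3b and H2az1 have related sequences elsewhere in the genome and their counts may be uncertain.

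The guide comparisons address whether histone genes differ when a Pou2f1 promoter is targeted. In T cells with sgRNA-P1, no type sum had a counting interval off 0. The H2B sum was 16.2 CPM, against 16.3 CPM with Mock, which is -0.01 on the log2 scale [-0.21, 0.19], and H1 was at 0.04 [-0.05, 0.13]. H2A was at -0.12 [-0.57, 0.28], H4 at 0.25 [-0.08, 0.56] and H3, with 45 reads against 82, at 0.00 [-0.86, 0.74]. The intervals of the H2B and H1 sums thus reach no further than 0.21 in either direction, while that of H3 spans more than a 1.5-fold change both ways.

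By the size rule at 5 CPM, 0 of 3 members passed in T cells with sgRNA-P1, where 0.11% of 10007 genes passed. At 1 CPM 1 of 10 members passed, H4c14, against 2.15% of 13131 genes. Its 57 and 52 reads in mock and guide libraries gave 0.72 [-0.08, 1.57]. H1f0 was at 0.03 [-0.13, 0.19], H1f2 at 0.05 [-0.07, 0.16] and H2bc21 at 0.05 [-0.22, 0.31].

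In B cells with sgRNA-P1 the H2B sum was 25.8 CPM against 26.3 CPM in mock, at -0.03 [-0.21, 0.15]. H2A was at 0.03 [-0.30, 0.39], H4 at -0.29 [-0.59, 0.02] and H3, with 53 reads against 55, at -0.56 [-1.40, 0.27], which without H3c1 turned to 0.33. The H1 sum was 65.5 CPM against 76.8 CPM, at -0.23 [-0.34, -0.12], and H1f2 was at -0.24 [-0.35, -0.12]. In this comparison log2 fold change moved with the GC content of genes (Spearman rho -0.50 across 9820 genes, which are not independent). After the trend with GC content and length was subtracted, the H1 sum was at -0.11, H1f2 at -0.11 and the sum of all members, -0.17 before, at -0.08. Members without a known GC content were corrected for length alone. By the size rule 0 of 5 members passed at 5 CPM, against 0.735% of 10062 genes. At 1 CPM 1 of 13 passed, again H4c14 at 1.0 [0.14, 2.10], against 4.29% of 13161 genes. Among 38 members with reads but under 1 CPM in both libraries, 2 had intervals off 0, both lower with the guide. These were H3c1, with 11 reads against 32, at -1.97 [-3.99, -0.67], and H4c3, with 9 against 25, at -1.89 [-4.18, -0.37]. The share of all genes at this level with such intervals was not computed, so these 2 are not read as a guide effect. By the same measure it was 0 of 35 members with sgRNA-P1 in T cells and 0 of 35 with sgRNA-P2 in B cells.

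With sgRNA-P2 in B cells the H2B sum was 26.4 CPM, at 0.00 [-0.20, 0.20]. H1 was at -0.11 [-0.23, 0.01], and without H1f2, itself at -0.14 [-0.27, -0.01], at 0.12. H2A was at -0.09 [-0.50, 0.30], H4 at -0.04 [-0.38, 0.29] and H3, with 31 reads, at -0.54 [-1.60, 0.38]. By the size rule 0 of 4 members passed at 5 CPM, against 0.278% of 10061 genes. At 1 CPM 2 of 14 passed, against 3.86% of 13131 genes: H4c14 at 0.85 [-0.19, 2.02] and H1f4, with 23 reads against 47, at -0.73 [-1.98, 0.30]. Both B guides were set against the same mock library, so their values share its error.

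**Figure D5:**
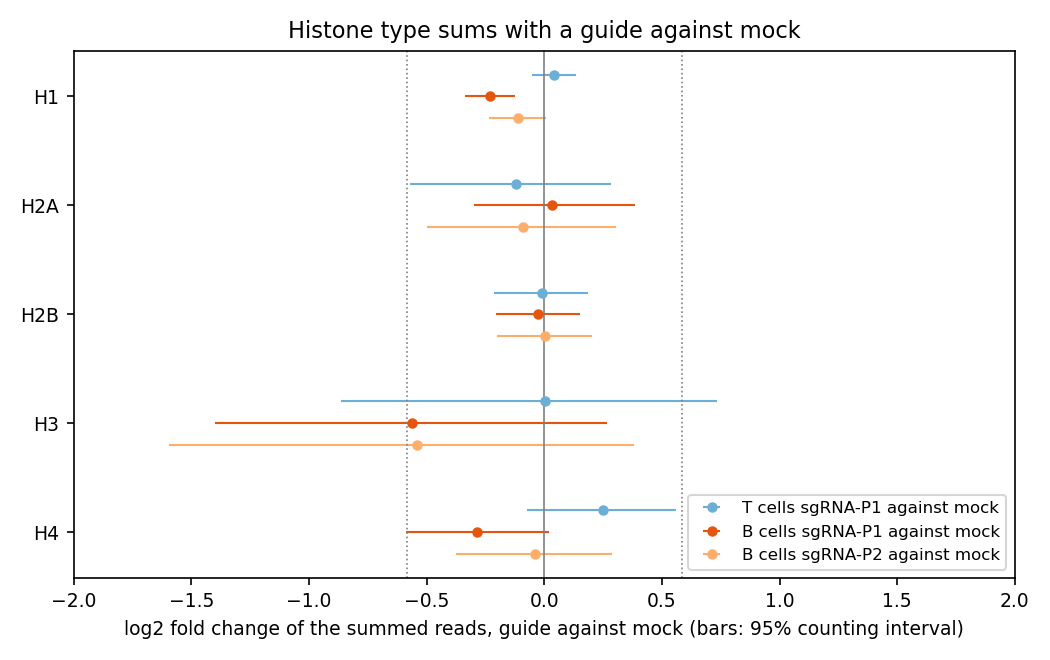
Log2 fold change of the summed reads of each histone type with a guide against mock in the same cell type; bars are 95% counting intervals and dotted lines mark 1.5-fold. The 3 H2B values lie between -0.03 and 0.00, and H3, with 31 to 82 reads per library, has the widest intervals.

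The guides themselves were compared in B cells. The H1 sum was lower with sgRNA-P1 than with sgRNA-P2 by a narrow margin, at -0.12 [-0.23, -0.00], H2B was at -0.03 [-0.22, 0.16] and H4 at -0.24 [-0.56, 0.08]. In this pair too log2 fold change moved with GC content (Spearman rho -0.45 across 9816 genes). By the size rule 0 of 5 members passed at 5 CPM, against 0.418% of 10059 genes, and at 1 CPM 1 of 13, H4c4, with 25 and 30 reads at -1.03 [-2.33, 0.10], against 3.83% of 13130 genes.

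In the fit over 5 libraries the guide term called 0 of 13 members and 1 of 14054 genes (0.00712%), Pou2f1 itself. An unadjusted p under 0.05 was given to 1 member, H4c14 (log2 0.85, edgeR p 0.0101, adjusted p 0.999), and to 320 genes in all. DESeq2 on the same terms also called 0 members, and 4 genes in all. In this fit the guides are taken as 1 condition and their effect as the same in T and B cells.

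The octamer-bearing H2B genes were also summed apart, since Oct-1 binds this motif. The 7 genes, of which 4 had a read, summed to 1.51 and 1.45 CPM in the T libraries and to 8.72, 7.68 and 8.46 CPM in the B libraries. H2bc8 and H2bc6 supplied nearly all of these reads, and of the 2 windows listed for H2bc6 only 1 holds the octamer. In T cells sgRNA-P1 gave a log2 fold change of -0.05 [-0.75, 0.63]. In B cells sgRNA-P1 gave -0.18 [-0.50, 0.14] and sgRNA-P2 gave -0.04 [-0.40, 0.32]. Each interval includes 0, and in T cells it also spans a 1.5-fold change in both directions. The 7 H2B genes whose windows hold no octamer had 8 to 34 reads per library in sum, and stood at -0.84 [-3.02, 0.72], -0.38 [-1.42, 0.77] and 0.02 [-1.13, 1.23] in the same comparisons, with intervals too wide to tell the sets apart.

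H2bc21 and H2bc4 have no window of their own in the RefSeq table and are in neither set. The windows of their divergent partners H2ac20 and H2ac6 do hold an octamer, and the deposited annotation puts the starts of these pairs 238 and 250 bases apart. With H2bc21 and H2bc4 added, the octamer-bearing H2B genes summed to 12.6 and 12.8 CPM in the T libraries and to 23.0, 22.0 and 23.3 CPM in the B libraries. Against mock they were then at 0.02 [-0.20, 0.25] in T cells, and at -0.06 [-0.26, 0.13] with sgRNA-P1 and 0.02 [-0.20, 0.23] with sgRNA-P2 in B cells.

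The value of mock T against mock B cells turned on which genes were counted. The 7 genes with an octamer in their own window were at -2.52 [-3.01, -2.08], at -1.17 without H2bc8, and at -0.87 [-1.07, -0.67] with H2bc21 and H2bc4 added. The 7 genes whose windows hold none were at -1.23 [-2.35, -0.04], so no difference between genes with and without the motif is shown.

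The lists around histone expression were measured for the guides as well. Of the 13 factors of histone mRNA transcription and processing at 5 CPM or more, none passed 1.5-fold with any guide. Their median log2 fold change was -0.03 in T cells, 0.06 with sgRNA-P1 and 0.02 with sgRNA-P2 in B cells, beside -0.02, -0.01 and -0.00 over all genes at 5 CPM. Npat was at -0.00, 0.13 and 0.06, and Slbp at -0.03, 0.10 and -0.04. None of the variants, chaperones or S phase genes at 5 CPM or more passed 1.5-fold with a guide. Pou2f2 was at 0.00, 0.10 and 0.04 and Pou2af1 at 0.19, 0.03 and -0.00.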

How the data were processed

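Poly(A) RNA from primary spleen T and B cells was measured in 5 groups. The authors deposited 1 table of read counts per gene (10 columns). HISAT2, featureCounts and the builds hg38 and mm39 are named per the submitters' processing notes, without versions, and the sources used here do not give the strand setting or the rule for reads with several matches. Columns were assigned by label, and both columns of a group, which match 1 library divided in a fixed proportion, were summed. Sums were scaled by TMM (edgeR 4.0.16, R 4.3.3) with factors from 0.982 to 1.01. Low sums of 1 to 9 reads were odd in 72.0 to 74.8% of genes, as whole read pairs less 1 read lost in rounding would be, so exact conditional 95% intervals of ratios and exact Poisson intervals of levels were computed on reads divided by 2 (SciPy 1.17.1). The prior was 1 read. Intervals cover counting error only, since no molecular identifiers were used. The tests across genes were edgeR's quasi-likelihood test on 5 libraries (1 CPM in at least 2), with DESeq2 1.42.0 as an alternative, adjusted by the Benjamini-Hochberg method over all genes tested. Whether libraries came from separate animals is not given, so p-values measure only the spread between these libraries. The code was tested on simulated data. Promoter windows were those of RefSeq on GRCm38.p6. Transcript copies and GC content were those of GENCODE M21 (66 of 72 members had a GC content). For genes without one, the trend subtracted was that with length alone. The authors' coordinates are on another build and are not printed. Named members are those at 5 CPM or more in some library and, of the rest, those past 1.5-fold at 1 CPM or more in the higher library, and other genes come from the lists. Promoters are printed for up to 5 octamer-bearing H2B genes of highest level and up to 2 H2A genes that share one. H2bc27, H3c1, H3c4, H4c3, Cd247, the members without a read and the divergent pairs were named after their values were seen. The members and lists were chosen with earlier results of these data known. The sum of octamer-bearing H2B genes with H2bc21 and H2bc4 added was chosen after seeing the data. One marker list is not reported here.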

Additional observations from a re-analysis of the deposited data

How the results depend on the processing

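Other scaling (median-ratio size factors, total reads) and a prior of 5 reads changed no log2 fold change of a type sum beyond its counting interval. No value of 1.5-fold or more changed sign. At a minimum of 1 CPM in place of 5, the members past 1.5-fold numbered 1 (sgRNA-P1, T), 1 (sgRNA-P1, B), 2 (sgRNA-P2, B), 1 (sgRNA-P1 against sgRNA-P2) and 9 (mock T against mock B). With no minimum they numbered 20 of 45, 26 of 51, 29 of 49, 22 of 52 and 37 of 50, against 26.3, 25.9, 31.0, 26.9 and 52.7% of all genes. Of the 72 members, 42 had under 20 reads over all libraries together. Because depth differs, 4 reads each in T cells with Mock and with sgRNA-P1 gave 0.85 for H2ac8. The counts with no minimum are therefore not read as differences. Use of 1 column per group cannot test stability, since the columns are divided from 1 library. After the GC and length trend was subtracted, the H1 sum with sgRNA-P1 in B cells was at -0.11 and the sum of all members at -0.076. Leaving out the most abundant member of a sum gave 0.33 for H3 with sgRNA-P1 in B cells (without H3c1), 0.12 for H1 with sgRNA-P2 and -0.29 for H1 with sgRNA-P1 against sgRNA-P2 (without H1f2). In mock T against mock B it gave 1.83 for H1 and 0.044 for all members (without H1f2), -1.22 for H2B (without H2bc21) and -0.47 for H4 (without H4c9). All 221 alternative values of members in the 5-library fit kept their side of the threshold, and those of called members kept their direction. No paired analysis was possible because both columns of a group are 1 library divided in a fixed proportion. Reads limit H3 most: its sums hold 31 to 82 reads per library.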

Other observations

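The H2A and H2B genes of 12 divergent pairs, whose annotated starts lie 175 to 305 bases apart, were compared by their reads. Over all 5 libraries the H2B partner had more reads in 8 pairs, the H2A partner in 2, and neither had a read in 2. The 8 include H2bc24 over H2ac24, with 3 reads against 0, and H2bc23 over H2ac23, with 1 against 0. Lengths also differ within pairs, in both directions. H2bc21 has 2620 bp of exon and H2ac20 520 bp, while H2bc4 has 1156 bp and H2ac6 2482 bp. H2bc21 had 2065 reads and H2ac20 had 77, H2bc4 had 774 and H2ac6 had 108, and H2bc8 had 707 and H2ac8 had 60. The H2A partner led in H2bc13 and H2ac13, with 4 and 21 reads, and in H2bc15 and H2ac15, with 11 and 16. Set against length, H2bc8 was at 10.3 CPM per kb and H2ac8 at 0.67 CPM per kb in mock B cells, and at 0.76 and 0.079 in mock T cells. H2ac20 was at 0.55 and 0.28 CPM in the T libraries and 0.059, 0.35 and 0.25 CPM in the B libraries, which interleave. Each H2A partner shares 5.56 to 35.9% of its exon bases with another annotated gene on the opposite strand, and no H2B partner does. This overlap, reads shared between copies, which are common among H2A transcripts, and the unknown strand setting bear on these counts. Their part was not tested.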
